A study of Glycine max with 6 samples.

Results

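The lipoxygenase and jasmonate branch of oxylipin metabolism was examined in soybean seed coats, with black (iRT) plants set against brown (irT) plants. The probe sets were taken by name: those of the Soybean GeneChip whose single gene symbol in the array annotation begins with LOX, VLX, AOS, AOC, TIFY or JAZ. This gave 29 of 37641 soybean probe sets and 14 of 6029 gene symbols. Of these, 21 probe sets stand for 9 lipoxygenases, 4 for 2 allene oxide synthases and 4 for 3 allene oxide cyclases. No symbol begins with TIFY or JAZ, so the name rule reached the enzymes of the pathway and none of its repressors. All 14 symbols were found in the RefSeq annotation of the Glycine max v4.0 assembly.

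Black (iRT) and brown (irT) plants are nearly isogenic lines of the variety Clark and differ at the R locus, which decides whether anthocyanins accumulate in the testa. Both carry the alleles i and T, both were left untreated, and each genotype is a single line. Dissection took place at the transition stage of seed development, at a fresh seed weight of 300 to 400 mg, from 3 black and 3 brown plants, with 1 array per plant. The study asked which transcripts differ between the isolines at a matched stage.

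Lipoxygenases add oxygen to linoleic and linolenic acid and yield fatty acid hydroperoxides. In plastids, allene oxide synthase and allene oxide cyclase turn the linolenic acid hydroperoxide into the precursor of jasmonic acid, and the active conjugate is sensed by the F-box protein COI1, which removes JAZ repressors. In soybean seeds the isozymes L-1, L-2 and L-3 are abundant proteins of the cotyledons, while other lipoxygenases are made in leaves, where some serve as storage proteins.

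The values are log2 signals. Over the soybean probe sets alone, array medians ran from 5.76 to 5.91, and correlations between arrays from 0.983 to 0.996. Probe sets for soybean pathogens served as the background, and their 95th percentile on each array lay between 3.54 and 3.78. DFR1, a flavonoid gene whose transcript level the study checked for equal stage, averaged 12.64 ± 0.03 in black and 12.55 ± 0.10 in brown seed coats (SD, n = 3 each; limma adjusted p = 0.810). The seed coat markers HPS, SCB1 and Ep had a mean level of 12.25 to 12.30 in black and 12.01 to 12.68 in brown plants. Library depth has no meaning on an array, and the number of arrays limits the precision.

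No probe set of the 29 passed the test between black and brown seed coats. With limma's two-sided test and the Benjamini-Hochberg adjustment over all soybean probe sets, 0 of 29 were called, where 0.109% of the array was. In black seed coats 0 were higher (0.0664% of the array) and 0 were lower (0.0425%). The smallest adjusted p was 0.473. At an unadjusted p under 0.05 there were 3 of 29, all of LOX9, against 8.32% of the soybean probe sets. None passed the limits named in the methods of the study, a change of more than 2-fold with an unadjusted p under 0.01, where 0.303% of the array did with the p of limma.

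The median difference, black minus brown, was 0.01 over the 29 probe sets and -0.02 over all soybean probe sets on the log2 scale. Differences ran from -0.74 to 1.71, with 15 positive and 14 negative. By class the median was 0.04 for lipoxygenases, 0.01 for allene oxide synthases and -0.02 for allene oxide cyclases. Signals lay above background in every plant for 18 probe sets, below it in every plant for 7 and in between for 4. The widest intervals belonged to the seed lipoxygenases.

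**Figure D1:**
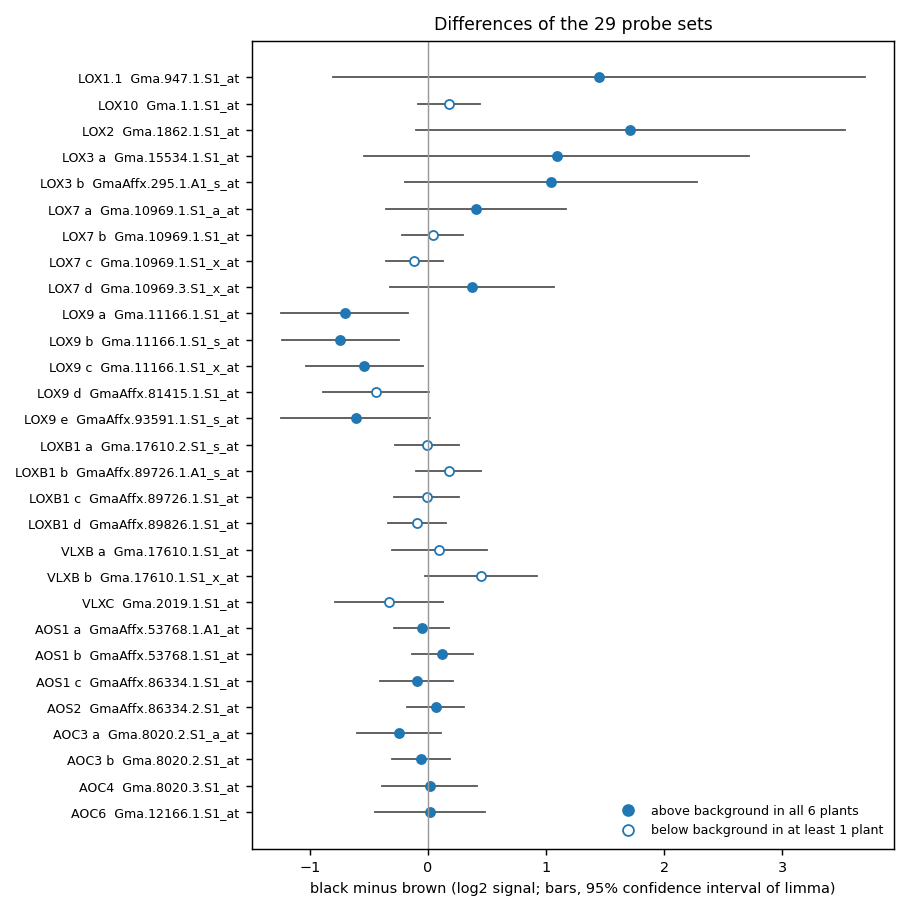
Difference between black and brown seed coats (log2 signal, x axis) for each of the 29 probe sets, with the 95% confidence interval of limma as bars; filled circles lie above background in all 6 plants and open circles below it in at least 1. The 4 probe sets of LOX1.1, LOX2 and LOX3 lie between 1.04 and 1.71 with intervals that include 0, and the 5 of LOX9 lie between -0.74 and -0.44.

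The genes of the 3 seed isozymes had the 4 largest positive differences of the 29 probe sets, and in each of them black plant 1 was the highest plant. LOX1.1 encodes L-1, LOX2 encodes L-2 and LOX3 encodes L-3. LOX2 and LOX1.1 are adjacent genes on chromosome 13 and LOX3 lies on chromosome 15.

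For LOX1.1 the signals were 12.11, 8.09 and 8.53 in black plants 1, 2 and 3, against 8.05, 8.39 and 7.96 in brown plants 1, 2 and 3. Black plant 1 alone was high, black plant 2 lay inside the brown range and black plant 3 lay 0.14 above it. The means were 9.58 ± 2.20 in black and 8.13 ± 0.23 in brown seed coats (SD, n = 3 each), a difference of 1.45 (SE 0.96, 95% interval -0.81 to 3.70, limma adjusted p = 0.722).

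LOX2 showed 9.97, 7.80 and 6.58 in black plants, against 6.37, 6.88 and 5.96 in brown plants. Black plant 1 was again the highest, and black plant 2 and brown plant 2 came after it, so the genotypes overlapped. LOX2 averaged 8.12 ± 1.72 in black and 6.40 ± 0.46 in brown seed coats, 3.28-fold by the means (difference 1.71, SE 0.77, 95% interval -0.10 to 3.53, limma adjusted p = 0.618).

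Where a gene has several probe sets they are lettered a, b and so on in the order of their array names, which the plots give. LOX3 is measured by 2. Probe set a gave 9.62, 6.94 and 6.80 in black plants, against 6.70, 6.84 and 6.55 in brown plants (difference 1.09, SE 0.69, limma adjusted p = 0.715). Probe set b of LOX3 gave 11.42, 9.35 and 9.39 in black plants, against 9.02, 9.21 and 8.80 in brown plants (difference 1.04, SE 0.52, limma adjusted p = 0.650). Both put black plant 1 above every other plant. With probe set b all black plants lay above all brown plants, 1 of 29 in this direction, which is the case for 5.74% of the soybean probe sets.

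**Figure D2:**
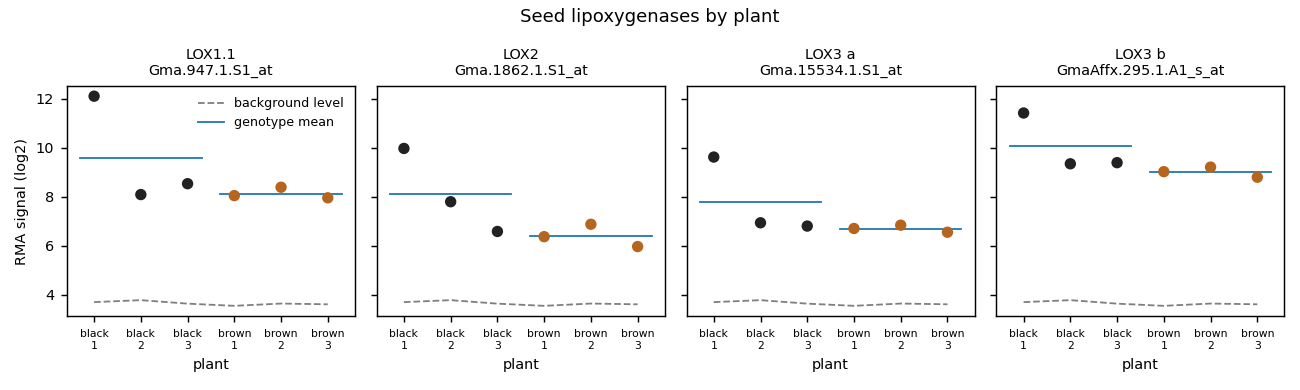
Signals (log2, y axis) of the 4 probe sets of LOX1.1, LOX2 and LOX3 in black plants 1 to 3 and brown plants 1 to 3 (x axis, 1 point per plant), with blue bars at the genotype means and a dashed line at each array's background level. Black plant 1 stands alone at the top of each panel, from 9.62 to 12.11, and the other 5 plants lie close together except in LOX2, where black plant 2 follows at 7.80.

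Relative to the mean of the other 5 plants, black plant 1 was 15.0-fold higher for LOX1.1, 9.55-fold for LOX2, and 7.23-fold and 4.81-fold for the LOX3 probe sets. Without it, the differences were 0.18 for LOX1.1 (95% interval -0.28 to 0.64), 0.79 for LOX2 (-0.20 to 1.77), and 0.17 (-0.13 to 0.47) and 0.36 (0.01 to 0.71) for the LOX3 probe sets. The last has an unadjusted p of 0.0451 and a limma adjusted p of 0.821. The spread of black plants for these probe sets, 2.07 to 4.02 from lowest to highest, lay at or above the 99.2nd percentile of all soybean probe sets, whose median was 0.29. LOX2 also varied among brown plants, by 0.91, at the 98.1st percentile. Leaving out black plant 3 instead gave LOX2 a difference of 2.48 with an unadjusted p of 0.00696 and a limma adjusted p of 0.199.

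**Figure D3:**
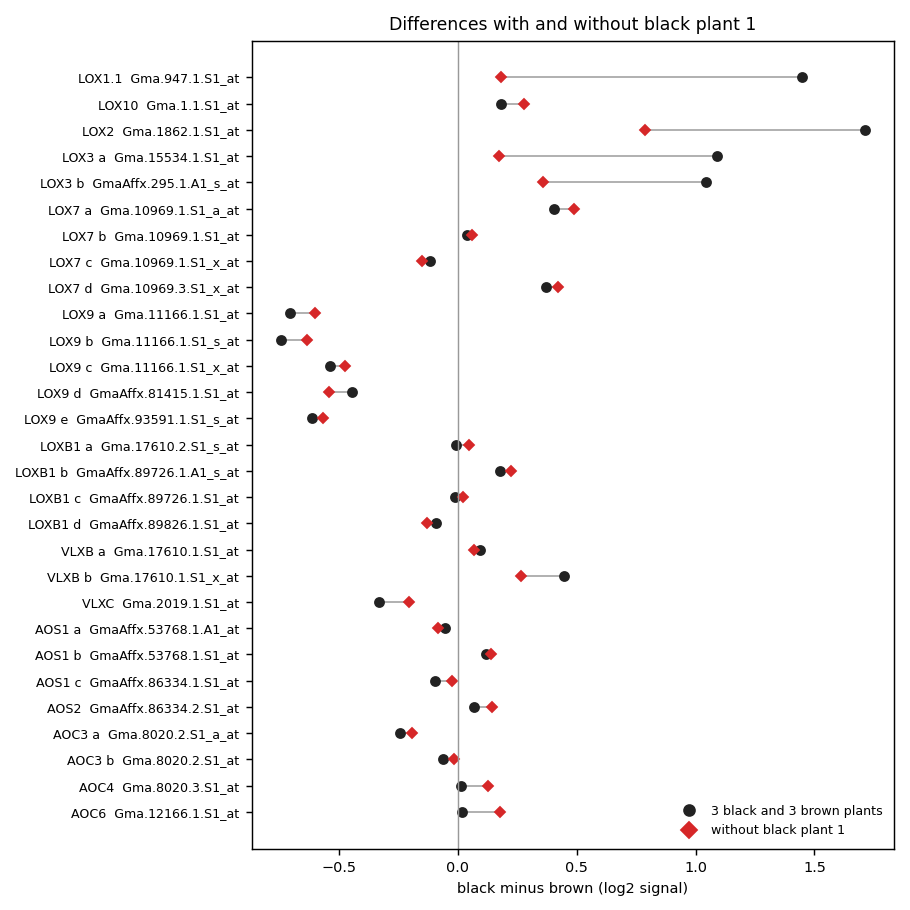
Difference between black and brown seed coats (log2 signal, x axis) for the 29 probe sets with all 6 plants (black circles) and without black plant 1 (red diamonds). LOX1.1 lies at 0.18 without the plant and at 1.45 with all plants, LOX2 at 0.79 and 1.71, and the 5 LOX9 probe sets stay below 0.

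Genes of seed storage and maturation, taken by name as markers of the embryo, were also mostly highest in black plant 1. Of 54 such probe sets (40 symbols, among them glycinins, conglycinins, trypsin inhibitors and late embryogenesis proteins, and SBPRP, a proline-rich protein taken in by its prefix), 40 were highest in this plant, against 5 of the 29 lipoxygenase and jasmonate probe sets and 17.6% of all soybean probe sets. Their mean level was 8.55, 7.47 and 6.32 in black plants and 6.52, 7.06 and 5.98 in brown plants, and the mean level of the 4 seed lipoxygenase probe sets was 10.78, 8.04 and 7.83 in black plants and 7.54, 7.83 and 7.32 in brown plants. Both lists put black plant 1 first and brown plant 3 last. Of the 54, 52, 47 and 44 lay above background in black plants and 48, 47 and 39 in brown plants, with 2 below it in every plant. None of them passed limma's adjusted test (0.109% of the array did), and 4 had an unadjusted p under 0.05 (8.32% of the array). The median difference was 1.08 with 46 positive, against 17090 of 37641 soybean probe sets. All 54 were measured in the same 6 plants, so their differences are not independent.

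The embryo list was not of one form. In 17 of the 54, black plant 1 exceeded the next highest plant by more than 2-fold, as it did in all 4 seed lipoxygenase probe sets and in 222 of 37641 soybean probe sets. LEA5, a late embryogenesis protein, was 16.6-fold and KTI3, a trypsin inhibitor, 8.27-fold above the next plant, beside 11.9-fold for LOX1.1. Others, such as a probe set of CG-BETA-1, a conglycinin storage protein, were highest in brown plant 1. A probe set of PM37 and that of LEA-2 were strong and level in all plants, at 13.30 to 13.57 and 11.78 to 12.12, near the seed coat markers. The mean level of the list is therefore not a measure of embryo RNA alone. In 24 of the 54, black plant 1 was followed by black plant 2 and brown plant 2, in either order. The same held for LOX2 and LOX3 probe set a, and for 994 of 37641 soybean probe sets in all. In bulk tissue, fewer cells of a type and less RNA per cell cannot be told apart, and the part of embryo RNA in the signals of the seed lipoxygenases was not tested.

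**Figure D4:**
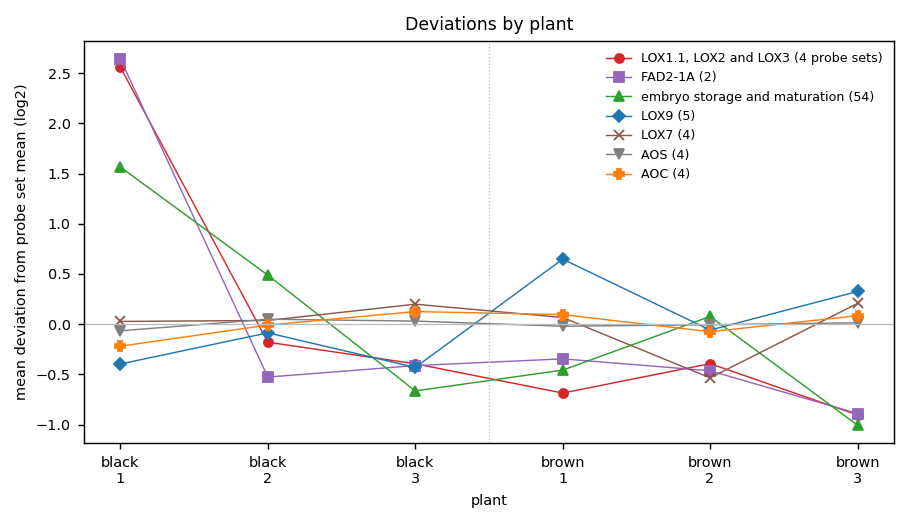
Mean deviation of each gene group from its probe set means (log2, y axis) in black plants 1 to 3 and brown plants 1 to 3 (x axis); thin lines only join the markers of 1 group, and the number of probe sets is in the legend. LOX1.1, LOX2 and LOX3 stand at 2.56 in black plant 1, with FAD2-1A at 2.64 and embryo storage and maturation genes at 1.56, while LOX9 is highest in brown plants 1 and 3 and the allene oxide enzymes stay near 0.

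LOX9 pointed the other way. All 5 of its probe sets had lower means in black than in brown seed coats, by 0.44 to 0.74 on the log2 scale. They stand for 1 gene and share its RNA, so they are not independent evidence. LOX9 lies on chromosome 7, apart from the other lipoxygenases found there.

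With probe set b, LOX9 gave 9.10, 9.32 and 9.54 in black plants, against 10.38, 9.62 and 10.19 in brown plants. The genotypes did not overlap, but brown plant 2 lay 0.08 above black plant 3. The means were 9.32 ± 0.22 in black and 10.06 ± 0.40 in brown seed coats, 0.597-fold (difference -0.74, SE 0.21, 95% interval -1.24 to -0.25, unadjusted p = 0.00915, limma adjusted p = 0.473).

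Probe set a gave LOX9 signals of 6.10, 6.63 and 6.20 in black plants, against 7.32, 6.55 and 7.19 in brown plants (difference -0.71, 95% interval -1.25 to -0.17, limma adjusted p = 0.514). With probe set c they were 9.61, 9.99 and 9.62 in black plants, against 10.61, 9.84 and 10.39 in brown plants (difference -0.54, SE 0.21, limma adjusted p = 0.572). In both, brown plants 1 and 3 lay above all black plants and brown plant 2 lay among the black ones.

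Probe set e repeated this order, with LOX9 at 6.86, 7.30 and 6.72 in black plants, against 8.11, 7.10 and 7.50 in brown plants (difference -0.61, limma adjusted p = 0.607). The dim probe set d gave 3.48, 3.47 and 2.91 in black plants, all below background, against 3.96, 3.74 and 3.49 in brown plants, so its fold is a bound, at least 1.02-fold lower in black (limma adjusted p = 0.604). With the 99th percentile of the pathogen probe sets as background (4.26 to 4.54), both genotypes lay below it and no fold can be given. Here too the genotypes did not overlap, by 0.01. That makes 2 of 29 probe sets with every black plant below every brown plant, beside 8.30% of the soybean probe sets.

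The LOX9 differences were negative in every alternative tried, and none was called. Over the alternatives the smallest limma adjusted p among the 5 probe sets ran from 0.220 without black plant 3 to 0.917 without brown plant 1. Brown plant 1 was the highest plant in all 5. Without it the differences shrank to between -0.59 and -0.33, with probe set e at -0.34 against -0.61 with all plants.

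**Figure D5:**
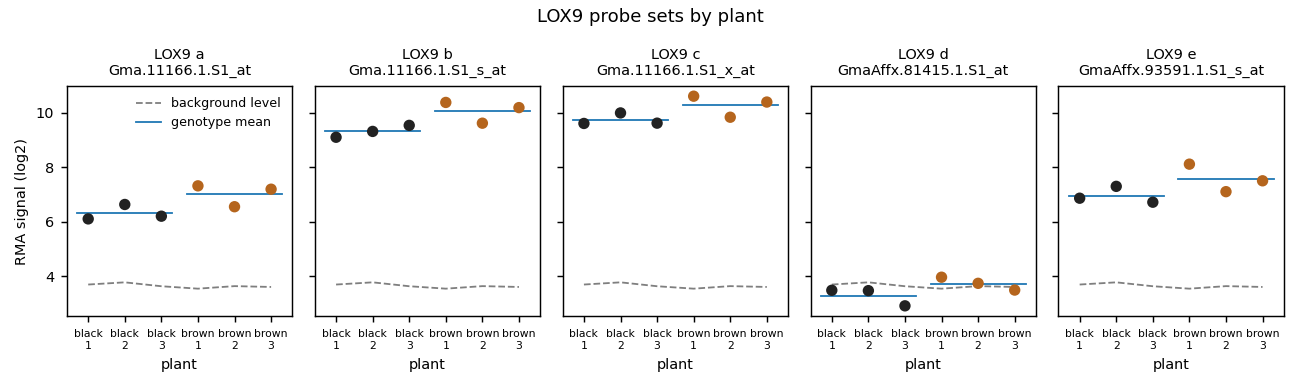
Signals (log2, y axis) of the 5 LOX9 probe sets in black plants 1 to 3 and brown plants 1 to 3 (x axis, 1 point per plant), with blue bars at the genotype means and a dashed line at each array's background level. Brown plant 1 is highest in every panel, brown plant 2 lies nearest the black plants in 4 of the 5, and probe set d lies at the background.

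LOX7 follows LOX2, LOX1.1 and LOXB1 without another protein-coding gene between them on chromosome 13. Its probe set a gave 6.25, 6.39 and 6.61 in black plants, against 6.39, 5.20 and 6.45 in brown plants. Probe set d of LOX7 gave 6.93, 6.91 and 7.25 in black plants, against 6.88, 5.95 and 7.15 in brown plants. In both, brown plant 2 was low and the other 5 plants lay together. The brown ranges of 1.25 and 1.20 stood at the 99.3rd and 99.2nd percentiles of all soybean probe sets, and the black ranges of 0.36 and 0.33 at the 63.2nd and 58.5th. The differences were 0.40 (95% interval -0.36 to 1.17) and 0.37 (-0.32 to 1.06), with limma adjusted p of 0.765 and 0.762. The other LOX7 probe sets, b and c, lay below background in every plant, so the probe sets of this gene disagree on whether it lay above background.

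LOXB1, which encodes the lipoxygenase L-4 (a vegetative storage protein also called VSP94), sits between LOX1.1 and LOX7. Its 4 probe sets lay below background in all 6 plants, as did the single probe set of LOX10 on chromosome 8. The 7 probe sets below background everywhere, with those of LOX7, spanned signals of 2.30 to 3.57, and no fold is given for them.

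The vegetative lipoxygenases VLXB and VLXC were at the edge of detection. VLXB lies on chromosome 15, with 1 protein-coding gene between it and LOX3. VLXB gave 3.92, 3.58 and 4.10 in black plants, against 3.98, 3.52 and 3.81 in brown plants with probe set a (difference 0.10, limma adjusted p = 0.911). With probe set b it gave 4.66, 4.11 and 4.11 in black plants, against 4.11, 3.54 and 3.89 in brown plants (difference 0.45, SE 0.20, limma adjusted p = 0.618). Black plant 1 was the highest plant with probe set b and not with a. VLXC was below background in all black plants, at 3.19, 3.62 and 3.54, against 3.97, 3.39 and 3.995 in brown plants, at least 1.06-fold lower in black (limma adjusted p = 0.692). At the 99th percentile background both genotypes lay below it for VLXC and for VLXB a, so no fold can be given there, and VLXB b was above it in 1 plant.

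Lipoxygenases are close paralogs, and on this array 1 further probe set is annotated to VLXB, LOX7 and LOXB1 together. The name endings _s_at and _x_at mark probe sets that may bind transcripts of more than one gene. This holds for some of the LOX3, LOX7, LOX9, LOXB1 and VLXB signals.

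Allene oxide synthases, the first committed step towards jasmonates, had differences near 0 with narrow intervals. AOS2 gave 10.15, 10.36 and 10.40 in black plants, against 10.25, 10.30 and 10.16 in brown plants, and averaged 10.30 ± 0.14 in black and 10.24 ± 0.07 in brown seed coats (difference 0.07, SE 0.10, 95% interval -0.17 to 0.31, limma adjusted p = 0.891). The genotypes overlapped. AOS1, with probe set c, gave 9.44, 9.45 and 9.84 in black plants, against 9.73, 9.59 and 9.71 in brown plants (difference -0.10, 95% interval -0.40 to 0.21, limma adjusted p = 0.873). The 2 other AOS1 probe sets gave signals just above background, 3.69 to 3.85 and 3.97 to 4.31 in black plants and 3.76 to 3.96 and 3.96 to 4.02 in brown plants, with differences of -0.05 and 0.12 (limma adjusted p = 0.912 and 0.797). Both lay below the 99th percentile background in all 6 plants.

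Allene oxide cyclases, which set the stereochemistry of the jasmonate precursor, had differences between -0.24 and 0.02. AOC3 gave 8.67, 8.56 and 9.08 in black plants, against 9.11, 8.87 and 9.06 in brown plants with probe set a (difference -0.24, SE 0.15, limma adjusted p = 0.708). With probe set b it gave 8.95, 9.05 and 9.11 in black plants, against 9.15, 8.94 and 9.20 in brown plants (difference -0.06, limma adjusted p = 0.905). Black plants 1 and 2 were the lowest with probe set a, and with b brown plant 2 was the lowest.

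AOC4 gave 8.46, 8.54 and 9.06 in black plants, against 8.63, 8.56 and 8.83 in brown plants (difference 0.01, 95% interval -0.39 to 0.42, limma adjusted p = 0.989). AOC6 gave 7.70, 8.47 and 7.91 in black plants, against 8.15, 7.98 and 7.90 in brown plants (difference 0.02, 95% interval -0.45 to 0.48, limma adjusted p = 0.988). For both genes the black plants lay around the brown ones. Taken one by one, the 95% intervals of the 4 allene oxide synthase probe sets reached ratios, black over brown, from 0.756 to 1.30. Those of the 4 allene oxide cyclase probe sets reached from 0.659 to 1.39. These are not joint limits for a class. The 1.30 belongs to AOS1 b, and AOS1 a and b lay so near background that their intervals do not bound a transcript ratio.

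None of the allene oxide enzymes was highest in black plant 1, in any of the 4 synthase or 4 cyclase probe sets. Among the 25 probe sets other than those of LOX1.1, LOX2 and LOX3, the median difference was -0.01 and 1 was highest in black plant 1. The mean deviations of these 25 were -0.12, -0.02 and 0.01 in black plants and 0.17, -0.16 and 0.12 in brown plants.

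Further genes of the pathway were taken from lists of symbols, and none of their probe sets was called in either direction by limma. Downstream, COI1, the jasmonate receptor, has 6 probe sets with a median difference of 0.00, of which 1 had an unadjusted p under 0.05 (8.32% over the array). That one, a dim probe set, gave COI1 signals of 3.99, 3.85 and 3.87 in black plants, against 4.45, 4.12 and 4.28 in brown plants (difference -0.38, unadjusted p = 0.0104, limma adjusted p = 0.484). It had every black plant below every brown plant, as 8.30% of the soybean probe sets did, and the other 5 overlapped. The next by p gave 9.26, 9.36 and 9.12 in black plants, against 9.001, 9.18 and 9.13 in brown plants (difference 0.14, limma adjusted p = 0.747). Another gave COI1 signals of 4.96, 4.98 and 4.81 in black plants, against 4.67, 4.45 and 5.05 in brown plants (difference 0.19, limma adjusted p = 0.768). The 3 probe sets with the smallest p thus did not share a sign.

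VSPA, a vegetative storage protein that jasmonate induces in soybean leaves, was below background in every plant with 7 of its 8 probe sets, and none had an unadjusted p under 0.05. The 3 with the smallest p were among these 7, with differences of 0.15, 0.13 and -0.13 (limma adjusted p = 0.820, 0.849 and 0.865). The probe set above background, named after its values were seen, gave 4.94, 5.21 and 5.40 in black plants, against 5.15, 5.16 and 5.26 in brown plants (difference -0.01). In it, black plants lay on both sides of the brown range. Symbols of later jasmonate synthesis and of the side branches of the hydroperoxides matched no probe set.

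Some pathway genes carry a locus name as their symbol and were found only through RefSeq synonyms, a list added after the data were seen. It holds 14 probe sets of 5 genes, of which 0 were called and 0 had an unadjusted p under 0.05 (smallest limma adjusted p = 0.654). The smallest p belonged to a probe set of the lipoxygenase loxA (LOC547835, adjacent to VLXC on chromosome 7), at 2.42, 2.66 and 2.76 in black plants, against 2.38, 2.42 and 2.40 in brown plants. All black plants lay above all brown plants, as in 5.74% of the soybean probe sets, but every signal was below background, so no fold is given. JAZ1, a repressor of jasmonate responses annotated as LOC100778559, gave 10.997, 10.61 and 10.80 in black plants, against 10.67, 10.57 and 10.80 in brown plants with the first of its 4 probe sets, named after its values were seen (difference 0.12, limma adjusted p = 0.822). The JAZ1 probe set with the smallest p gave 6.98, 7.37 and 7.95 in black plants, against 7.91, 7.77 and 7.89 in brown plants (difference -0.42, limma adjusted p = 0.664). Another, also named after its values were seen, gave 5.10, 5.28 and 5.88 in black plants, against 5.86, 5.45 and 5.63 in brown plants (difference -0.22, limma adjusted p = 0.804). These disagreed in sign with the first, and none passed. The remaining JAZ1 probe set lay below background in every plant.

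AOC2 (LOC100800036) gave 5.77, 5.97 and 6.26 in black plants, against 5.69, 5.88 and 5.86 in brown plants (difference 0.19, limma adjusted p = 0.742). LOC100810890 has the synonyms HPL, the name of lyases that cleave the same hydroperoxides to volatile aldehydes, and CYP74A2, a name in the allene oxide synthase subfamily, and gave 9.88, 9.41 and 9.75 in black plants, against 9.84, 9.66 and 9.45 in brown plants (difference 0.03). A second loxA probe set gave 8.51, 8.52 and 8.69 in black plants, against 8.67, 8.73 and 8.56 in brown plants (difference -0.08). The last 2 were named after their values were seen, and in these 3 probe sets the genotypes overlapped.

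Upstream, 14 probe sets stand for 9 fatty acid desaturase genes, which act on the way to the polyunsaturated substrates of lipoxygenases (median difference -0.05, 0 called, 0 with an unadjusted p under 0.05). The smallest p belonged to a probe set of FAD2-2, an oleate desaturase, with 8.87, 8.76 and 9.004 in black plants, against 9.21, 8.97 and 9.04 in brown plants (difference -0.19, limma adjusted p = 0.676). A brighter FAD2-2 probe set, named after its values were seen, gave 11.57, 11.63 and 11.75 in black plants, against 11.76, 11.64 and 11.75 in brown plants. In it the genotypes overlapped (difference -0.07, limma adjusted p = 0.875). FAD6.1, a plastid oleate desaturase, gave 5.21, 5.24 and 5.16 in black plants, against 5.28, 5.39 and 5.36 in brown plants (difference -0.14, limma adjusted p = 0.703). FAD3B, a linoleate desaturase, gave 8.25, 8.36 and 8.46 in black plants, against 8.55, 8.48 and 8.49 in brown plants (difference -0.15, limma adjusted p = 0.709). For FAD6.1 and FAD3B all black plants lay below all brown plants, by margins of 0.03 and 0.02, which makes 2 of 14 probe sets beside 8.30% of the array.

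FAD2-1A, the oleate desaturase of developing seeds, was singled out after its values were seen. Its first probe set gave 9.42, 6.55 and 6.19 in black plants, against 6.39, 6.38 and 6.16 in brown plants (limma adjusted p = 0.741). The second gave 8.12, 4.66 and 5.24 in black plants, against 5.19, 4.95 and 4.33 in brown plants (limma adjusted p = 0.732). Black plant 1 was 8.50-fold and 9.51-fold above the mean of the other 5 plants. Without FAD2-1A the 12 remaining probe sets had a median difference of -0.07.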

How the data were processed

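RNA from the seed coats of 6 plants was labelled and hybridized, 100 ng per plant with 16 h of in vitro transcription, to Affymetrix Soybean GeneChips. The deposited values are log2 signals computed by the authors with RMA, which corrects background, normalizes quantiles and summarizes probes; the software version is not given in the sources used here. RMA makes the arrays' distributions equal, so a shift of all transcripts would be removed. Beside these, the authors deposited tables of their own comparison (group means, fold changes, d scores and p-values), which were not used.

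Groups were taken from the labels. The array holds 37641 soybean, 23394 pathogen and 135 control probe sets, and the soybean ones were fitted in R 4.3.3 with limma 3.58.1 (functions lmFit and eBayes, two-sided, unpaired, prior degrees of freedom 3.17), with p-values adjusted by Benjamini-Hochberg over all of them. An exact permutation test of 3 against 3 plants cannot give a p below 0.1. Probe sets below the 95th percentile of the pathogen ones count as below background, and a fold is a lower bound where all plants of the lower genotype lie there.

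The array annotation gives 1 symbol for 8677 soybean probe sets, several for 370 and none for 28594. It can be old, and unnamed probe sets may belong to the same genes. The probe sets and gene lists were chosen with earlier results of these data known. Named with full values are, per class, up to 6 with the smallest p and the 3 with the highest signal, and from each pathway list up to 3 with the smallest p. LOX1.1, LOX2, LOX3 a, LOX7 a and d, VLXB a and VLXC fall outside this rule and were also given in full. Single genes of the embryo list were picked after their values were seen. Probe sets of the pathway lists outside this rule are marked in the text as named after their values were seen. Gene order is that of the Glycine max v4.0 assembly. Alternatives were array weights, the trend and robust options of limma, median centring, cyclic loess and all probe sets in the adjustment. Further ones were a filter on dim probe sets and removal of probe sets with the endings _s_at, _x_at and _a_at. The last were a replicate block, each plant left out, the limits of the methods and the 99th percentile as background. The fit was tested on simulated data. Promoter and protein sequences were not analysed here. Plots used matplotlib 3.10.9 and numpy 2.4.6 under Python 3.11.15.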

Additional observations from a re-analysis of the deposited data

How the results depend on the processing

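None of the 29 probe sets was called under any alternative, and the smallest limma adjusted p was 0.199, for LOX2 without black plant 3. Past the limits of the methods, the higher count ran from 0 to 1 over the fits without one plant, the 1 being LOX2 without black plant 3. Over the array, the 25 higher calls became 40 with trend and robust settings, 39 with median centring, 68 by the limits of the methods, and 9 to 20 without one plant (13 without black plant 1, and 9, 11 and 10 without brown plants 1, 2 and 3). The 16 lower calls became 46 by the limits of the methods and 4 to 13 without one plant (8 and 10 without black plants 1 and 3, and 4 without either brown plant 1 or brown plant 3). Cyclic loess gave 33 higher and 13 lower.

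The plants share numbers 1 to 3 across genotypes, and the labels do not say whether these pair them. The deviations of same-numbered plants were correlated at 0.09, 0.29 and 0.50. Those of differently numbered plants ran from -0.45 to 0.26, all negative except black plant 1 with brown plant 2 (0.26). The study harvested the seed coats it compared on the same days. Whether the numbers mark a pairing was not tested, and the main fit is unpaired. With a replicate block, 14 were called higher and 9 lower over the array and none of the 29.

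The median difference of the lipoxygenases was 0.39 in place of 0.04 with the filter on dim probe sets, which kept 12 of 21. That of the allene oxide synthases was 0.0551 in place of 0.01 with median centring and ran from -0.00621 to 0.0576 without one plant. Among single probe sets, 5 of 212 alternatives and 16 of 174 fits without one plant changed sign, and the cause was not tested. With array weights, LOX7 b was at -0.0054, AOC6 at -0.0604 and AOC4 at -0.0342, and with median centring LOXB1 a was at 0.0395 and LOXB1 c at 0.0365. Without one plant, LOX7 a ranged from -0.0027 to 0.62, LOX7 b from -0.052 to 0.11, AOC6 from -0.206 to 0.18, AOC4 from -0.173 to 0.13, VLXB a from -0.0281 to 0.24, LOXB1 a from -0.12 to 0.0458, LOXB1 c from -0.10 to 0.0631, and AOS1 a from -0.10 to 0.0015. With the 99th percentile as background, no fold could be given for LOX9 d, VLXB a, VLXC, AOS1 a and AOS1 b. With 3 plants per genotype the precision is low, and 7 of the 29 probe sets lay below background in every plant.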

Other observations

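The probe set annotated to VLXB, LOX7 and LOXB1 together, which the name rule leaves out, gave 2.34, 2.54 and 2.48 in black plants and 2.53, 2.61 and 2.23 in brown plants, below background throughout. SACPD-C, a stearoyl carrier protein desaturase of the substrate list, was singled out after its values were seen and gave 8.87, 9.56 and 7.85 in black plants and 8.12, 9.42 and 7.80 in brown plants, with plant 2 the highest in both genotypes.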
